A study of Mus musculus with 6 samples.

Results

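The genes described here encode the metalloproteinases and metalloproteinase inhibitors that lie scattered over the mouse genome, outside the tight Mmp gene cluster on chromosome 9. They comprised 13 matrix metalloproteinases (MMPs), the 4 tissue inhibitors of metalloproteinases (TIMPs) and the membrane-anchored inhibitor Reck, 8 ADAM proteases and 18 ADAMTS proteases. Members were found by gene symbol, and where a symbol had several transcript rows the row with the highest mean count was used, which gave 44 of the 24063 symbols in the files. RNA was measured in 3 penile tumors of SA mice (PB-Cre+ Smad4L/L ApcL/L) and in 3 samples of normal penile epithelium from wild-type (WT) C57BL/6 mice, all at an age of 5 months. The tumors arose spontaneously, with no carcinogen given. Cre came from the PB-Cre4 transgene, whose probasin promoter is active in androgen-responsive epithelium, and deletion in each cell type of a tumor was not measured here. The question the comparison addressed was which of these protease and inhibitor transcripts differed between tumor and normal tissue.

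All of these proteases are zinc enzymes. MMPs cut collagens, laminins and other matrix proteins, ADAMs release the outer parts of membrane proteins such as growth factors and adhesion molecules, and ADAMTS enzymes trim proteoglycans, procollagens and microfibril proteins. Most are made as inactive precursors, so that a transcript level does not give activity. The TIMPs occupy the active site, with Timp3 also inhibiting several ADAM and ADAMTS enzymes, and Reck blocks MMPs at the cell surface.

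The 44 genes lay on 19 chromosomes, with at most 4 of them on 1 chromosome. Among them, 2 pairs of neighbours were closer than 100 kb, namely Adamts15 with Adamts8 on chromosome 9 and Adamts1 with Adamts5 on chromosome 16. RefSeq promoter windows, from 250 bases before to 50 bases after a start listed in GRCm38.p6 (the assembly of mm10), were matched for 27 of the 44 genes. Of their 30 windows, 21 were placed on a start within 50 bases of the start of the transcript row counted here, and 9, that of Adamts18 among them, on a start farther inside that row. The windows of Timp1, Timp2 and Timp3 are shown because these inhibitors moved in different directions, and that of Adamts17 because this protease had a large increase. CG dinucleotides are in capitals and each sequence runs 5′ to 3′ on the gene's own strand.

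Timp1: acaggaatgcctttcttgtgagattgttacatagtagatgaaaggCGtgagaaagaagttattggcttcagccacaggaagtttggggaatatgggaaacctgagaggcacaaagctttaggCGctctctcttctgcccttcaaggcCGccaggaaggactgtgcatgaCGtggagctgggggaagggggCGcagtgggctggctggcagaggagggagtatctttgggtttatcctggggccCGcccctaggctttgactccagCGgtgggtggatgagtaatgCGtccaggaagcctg
Timp2: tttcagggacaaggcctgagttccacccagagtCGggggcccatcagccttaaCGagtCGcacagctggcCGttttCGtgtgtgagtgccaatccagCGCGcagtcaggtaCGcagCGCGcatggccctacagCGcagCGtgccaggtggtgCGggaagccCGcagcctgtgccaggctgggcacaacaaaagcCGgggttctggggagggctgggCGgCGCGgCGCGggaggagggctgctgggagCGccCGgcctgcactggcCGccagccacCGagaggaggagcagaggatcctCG
Timp3: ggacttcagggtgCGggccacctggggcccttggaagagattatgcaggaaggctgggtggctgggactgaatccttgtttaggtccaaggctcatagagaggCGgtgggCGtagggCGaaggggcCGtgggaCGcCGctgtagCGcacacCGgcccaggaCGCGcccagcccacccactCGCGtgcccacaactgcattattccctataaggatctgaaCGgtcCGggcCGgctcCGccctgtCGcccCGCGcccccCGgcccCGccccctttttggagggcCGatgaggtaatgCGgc
Adamts17: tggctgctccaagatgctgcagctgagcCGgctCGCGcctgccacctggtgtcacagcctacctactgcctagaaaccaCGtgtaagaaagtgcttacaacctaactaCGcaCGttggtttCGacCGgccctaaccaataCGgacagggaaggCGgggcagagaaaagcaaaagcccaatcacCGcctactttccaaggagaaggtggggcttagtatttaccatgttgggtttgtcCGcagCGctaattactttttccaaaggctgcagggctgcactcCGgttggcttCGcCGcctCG

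The Timp1 window, at chrX:20869916-20870215 on the plus strand, held 8 CG dinucleotides, close to the median of 7 over all promoter windows. The Timp2 window, at chr11:118355362-118355661 on the minus strand, held 25, and the Timp3 window, at chr10:86300162-86300461 on the plus strand, held 24. The windows of Timp2 and Timp3 thus lay above the upper quartile of 20 over all promoters, and that of Timp1 did not. Windows of genes that rose lay on both sides of that quartile, with Adam10 (32) and Mmp15 (22) above and Mmp14 (10) below. The Adamts17 window (chr7:66839485-66839784, plus strand), on a start 36 bases inside the counted row, held 17 CG dinucleotides. The AP-1 motif TGANTCA, read on both strands, was in 1 of the 30 member windows (3.33%), one of Adam19, against 7.81% of all 32851 windows. The TCF/LEF motif CTTTGAT, also read on both strands, was in 0 of the 30 member windows against 3.73% of all. Only exact matches counted, so near matches such as TGAGTAA in the Timp1 window were left out. Mmp9, Mmp17, Adam12 and Adamts4 had no window, and that of Adamts20 lay 27724 bases inside the counted row. Windows on chromosome 18, where Adamts19 lies, were counted among all windows but not among those of members.

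Counts assigned to gene rows came to 24466536, 27547073 and 110509147 in the SA libraries and to between 23828283 and 32871142 in the WT libraries, so the third SA tumor was sequenced 4.42 times as deeply as the median of the other libraries. A floor of 3 counts lay between 0.0244 and 0.137 CPM (counts multiplied by 1e+06 and divided by the TMM library size). As a check of the labels, Smad4 was lower in SA tumors (36.0 to 46.0 CPM) than in WT penis (61.1 to 72.5 CPM), whereas Apc was higher (194 to 253 against 62.5 to 91.0 CPM); counts over whole transcripts cannot show the deleted exons. Summed CPM of 8 keratinocyte markers was 20900 to 26200 in SA tumors and 59800 to 67400 in WT penis, so both groups held epithelium. Within that list 5 genes were lower at the adjusted p, led by keratins, whereas Epcam rose past both thresholds (log2 fold change 2.35, adjusted p = 2.41e-05) and Cdh1 was at 0.04. All 6 smooth muscle markers fell past both thresholds (35.5 to 124 against 1540 to 2060 CPM summed), while the 4 neutrophil markers that could be tested, of 8 listed, all rose (1420 to 2480 against 56.7 to 120 CPM summed, with Ngp, Camp and Mpo at or near the floor). In bulk tissue fewer cells of a type and less RNA per cell cannot be told apart, and the part of cell composition in the results below was not tested.

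SA tumors contained more RNA of some proteases, less of others, and less of 3 of the 5 inhibitors at the adjusted p. Among these inhibitors, the calls of Timp3 and Reck held in only 2 of 6 fits that left out 1 library. Of the 43 members with enough counts to test, 8 were upregulated past both thresholds of the study (adjusted p below 0.01 and a change of 2 or more, in either direction, on the log2 scale), against 9.41% of all 16336 genes tested. These were Mmp9, Mmp25, Timp1, Adam12, Adamts4, Adamts17, Adamts18 and Adamts20. Downregulation past both thresholds was seen for Mmp17 alone, against 3.59% of all genes. At the adjusted p alone, 16 members were higher (20.1% of all genes were) and 8 were lower (17.5% of all genes). The median log2 fold change was 0.61 over the 43 members and 0.03 over all genes. All adjusted p-values are from edgeR's quasi-likelihood test with Benjamini-Hochberg correction over the 16336 genes, since an exact two-sided permutation test of 3 against 3 samples cannot go below 0.10.

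**Figure D1:**
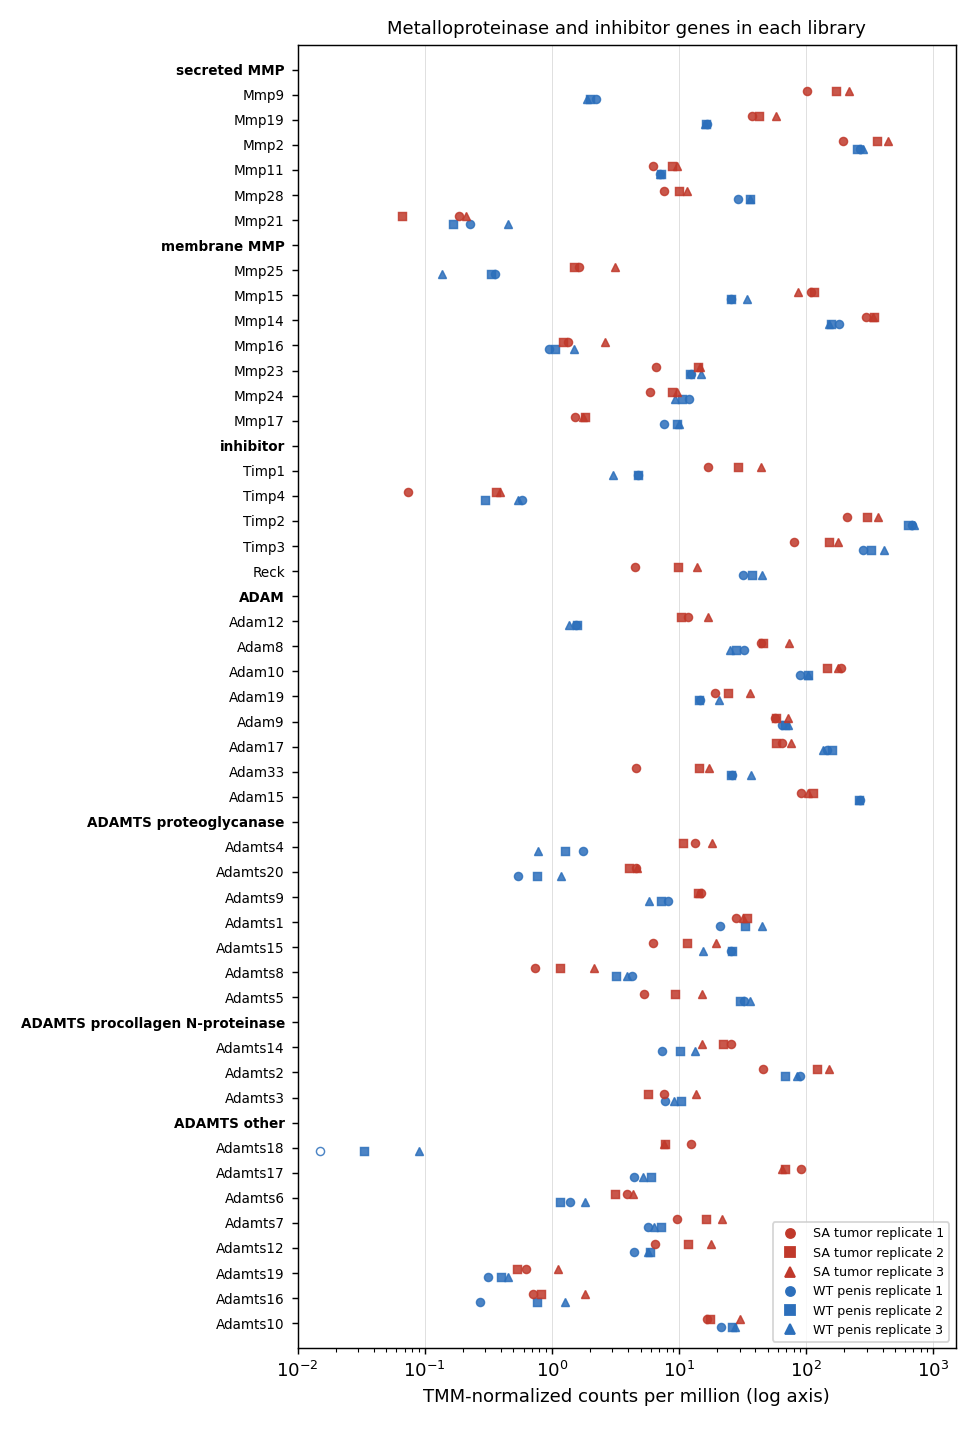
CPM (log axis) of the 44 members, grouped by class, in each of the 3 SA tumors and 3 WT samples, with 1 point per library. An open circle at the left edge marks a count of 0. For Mmp9 the SA points sit between 101 and 219 CPM and the WT points between 1.91 and 2.21 CPM, whereas the points of Mmp2 and Timp4 overlap between the groups.

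Among the secreted MMPs, Mmp9 had the largest increase. Mmp9, the gelatinase B that neutrophils, macrophages and osteoclasts store or secrete, was at 101, 171 and 219 CPM in the SA tumors and at 2.21, 2.00 and 1.91 CPM in WT penis. The lowest tumor lay far above the highest WT sample, and the WT samples were nearly equal. The log2 fold change was 6.33 ± 0.331 (SE), an 80.2-fold difference, with adjusted p = 5.87e-06 (RefSeq row NM_013599, chr2:164940326-164955850 in mm10). The summed neutrophil markers moved the same way, 22.0-fold on average, whereas the summed macrophage markers were 110 to 264 CPM in SA tumors and 168 to 235 CPM in WT penis. Most of the neutrophil sum was S100a8 and S100a9 (783 and 1050 CPM on average in SA tumors). Csf3r and Cxcr2 rose 24.1-fold and 7.52-fold. Of the cartilage and bone markers, 4 of the 6 tested (Col2a1, Col9a1, Ibsp and Sp7) rose past both thresholds, whereas the osteoclast genes Acp5 and Ctsk had log2 fold changes of -0.88 (adjusted p = 0.0077) and 0.10 (adjusted p = 0.838). The summed level of that list was 84.2 to 147 CPM in SA tumors and 109 to 140 CPM in WT penis, with Col2a1 and Bglap at 0 in a WT library. Their part in the Mmp9 result was not tested.

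Mmp2, the gelatinase A of stromal cells, did not follow Mmp9. It was at 194, 363 and 441 CPM in SA tumors and at 268, 254 and 283 CPM in WT penis, with a log2 fold change of 0.31 ± 0.266 (SE) and adjusted p = 0.361. The first tumor lay below and the other tumors above all WT samples, so the groups overlapped. Mmp19, a broad-spectrum MMP, rose from 16.4 ± 0.309 to 46.3 ± 10.8 CPM (mean ± SD, n = 3 each), by 1.5 on the log2 scale with adjusted p = 1.38e-04. Mmp28 (epilysin), which keratinocytes make, fell from 33.9 ± 4.31 to 9.78 ± 2.0 CPM (log2 fold change -1.79, adjusted p = 7.51e-05), beside the keratinocyte markers given above, whose sum was lower but whose members did not all move one way. Mmp11 (stromelysin 3) had a log2 fold change of 0.22 and did not pass (adjusted p = 0.377). Mmp21, a developmental MMP, had at most 0.455 CPM in any library and was not tested.

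Of the 7 membrane-type MMPs, 3 rose and 1 fell at the adjusted p, beside 20.1% and 17.5% of all genes. Mmp14, the transmembrane collagenase that activates the Mmp2 precursor, was at 296, 344 and 338 CPM in SA tumors and at 181, 156 and 151 CPM in WT penis. The groups were separate and the spread within each was small, with a log2 fold change of 1.00 ± 0.112 (SE) and adjusted p = 1.37e-04. Mmp15, its close relative, rose from 28.7 ± 4.89 to 104 ± 15.1 CPM, which at 1.86 on the log2 scale fell short of the fold threshold (adjusted p = 3.29e-05).

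The lipid-anchored pair Mmp17 and Mmp25 moved in opposite directions. Mmp17 was at 1.52, 1.82 and 1.75 CPM in SA tumors and at 7.68, 9.58 and 10 CPM in WT penis. Every tumor lay below every WT sample, at a log2 fold change of -2.42 ± 0.203 (SE), 5.34-fold lower, with adjusted p = 3.09e-05 (chr5:129584151-129611099). Mmp25, the leukolysin of neutrophils, was at 1.63, 1.49 and 3.14 CPM in SA tumors and at 0.361, 0.334 and 0.137 CPM in WT penis. The groups did not overlap, although the WT values lay close to the counting floor (log2 fold change 2.91 ± 0.472 SE, adjusted p = 0.00105). The transmembrane Mmp16 and Mmp24 and the short Mmp23, which lacks the usual hemopexin domain, did not pass, with log2 fold changes of 0.61, -0.37 and -0.16.

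**Figure D2:**
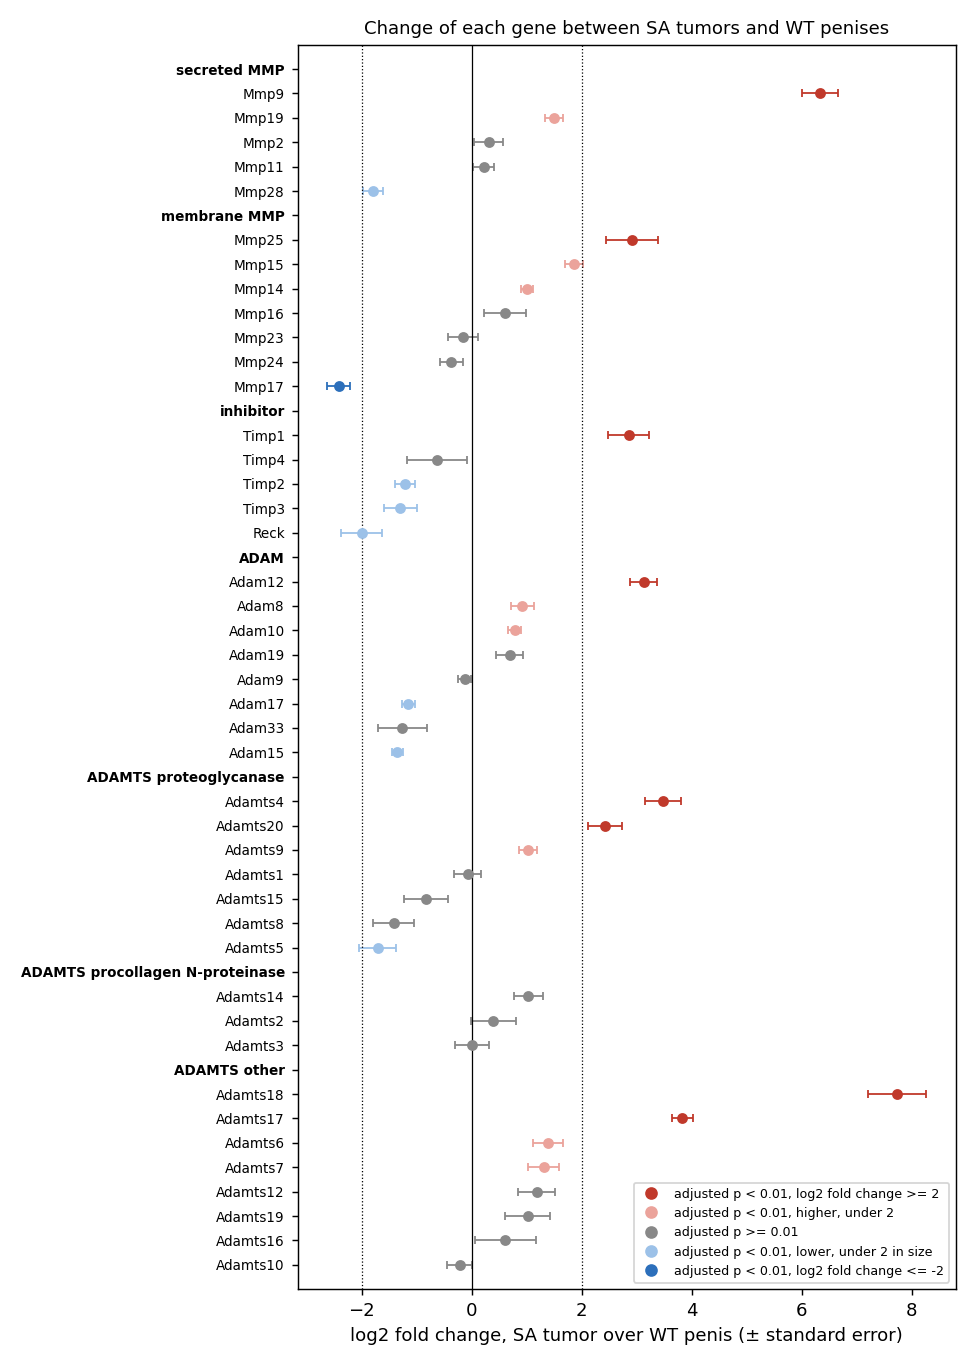
Log2 fold change of SA tumor over WT penis for the 43 members tested, grouped by class, with bars for the standard error and dashed lines at the fold threshold of 2 in size. Points range from -2.42 for Mmp17 to 7.73 for Adamts18, and of the 5 inhibitors only Timp1 lies to the right of 0.

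The inhibitors split. Timp1, the soluble inhibitor induced by cytokines and growth factors, was the 1 inhibitor of 5 that rose, while Timp2, Timp3 and Reck fell at the adjusted p. At that threshold 20.1% of all genes were higher and 17.5% lower. Timp1 was at 17.1, 29.3 and 43.9 CPM in SA tumors and at 4.74, 4.74 and 3.01 CPM in WT penis. Every tumor lay above every WT sample, although the tumors spread more widely, and the log2 fold change was 2.85 ± 0.366 (SE), 7.23-fold, with adjusted p = 4.63e-04. Timp2, which both inhibits Mmp2 and helps Mmp14 to activate it, was at 210, 303 and 366 CPM in SA tumors and at 682, 637 and 712 CPM in WT penis. The groups were separate, at a log2 fold change of -1.21 ± 0.188 (SE), 2.31-fold lower in tumors, with adjusted p = 8.83e-04.

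Timp3, the matrix-bound TIMP, was at 80.2, 152 and 180 CPM in SA tumors and at 279, 327 and 411 CPM in WT penis. The groups did not overlap, but the log2 fold change of -1.30 ± 0.298 (SE) passed by a small margin (adjusted p = 0.00874). The call held in 2 of 6 fits that each left out 1 library, and it was lost with upper quartile scaling (adjusted p = 0.0126), library totals only (0.0218) and no filter on low counts (0.0179). Reck, the membrane-anchored inhibitor, was at 4.49, 9.79 and 14.0 CPM in SA tumors and at 31.9, 37.6 and 45.3 CPM in WT penis. The groups were again separate, with a log2 fold change of -2.0 ± 0.377 (SE), just short of 2 in size before rounding, and adjusted p = 0.00367, and this call too held in 2 of the 6 fits. Timp4 was at 0.0743, 0.364 and 0.390 CPM in SA tumors and at 0.587, 0.3 and 0.546 CPM in WT penis, near the counting floor, and its groups overlapped (log2 fold change -0.63, adjusted p = 0.357). Summed fibroblast markers were 1290 to 4800 CPM in SA tumors and 6220 to 6510 CPM in WT penis. Of the 7 genes 1 (Dcn) was lower at the adjusted p, beside 17.5% of all genes. They did not all move one way: Pdgfra had a log2 fold change of 1.09 (adjusted p = 0.0604), and Col1a1 and Lum overlapped between the groups. All 6 smooth muscle markers fell past both thresholds. The part of these cell types in the inhibitor results was not tested.

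Deposited TPM values, which are scaled by transcript length, were used to set levels of different genes side by side, as a description without a test. In WT penis the most abundant members were Timp2 (257 ± 23.6 TPM, mean ± SD, n = 3), Mmp2 (121 ± 11.4 TPM), Adam15 (120 ± 5.92 TPM) and Timp3 (100 ± 25.3 TPM). In SA tumors the order was Mmp14 (223 ± 17 TPM), Mmp2 (194 ± 75.9 TPM), Timp2 (144 ± 40.2 TPM) and Mmp9 (91.8 ± 34.5 TPM). In that order Mmp2 differed from Mmp14 and from Timp2 by less than its own SD, whereas Timp2 and Mmp9 differed by more than the SD of either. Mmp9 ranked 33 of 44 in WT penis, at 0.881 TPM, and 4 of 44 in SA tumors. Summed TPM of the 13 MMPs was 465, 628 and 740 in SA tumors and 255, 263 and 288 in WT penis. Summed TPM of the 4 TIMPs was 169, 256 and 345 in SA tumors and 325, 351 and 416 in WT penis. TPM values are not TMM-scaled, so these sums are not directly comparable between the groups. For example, Adam9 averaged 27.5 TPM in SA tumors and 23.3 TPM in WT penis, but 62.5 and 68.3 CPM. Ratios within a library do not depend on that scaling.

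The ratio of the 2 sums was 2.75, 2.46 and 2.14 in SA tumors and 0.786, 0.750 and 0.693 in WT penis. Transcripts of these 13 MMPs thus outnumbered TIMP transcripts in every tumor and in no WT sample. MMPs of the chromosome 9 cluster were not in the sum. Mmp9 supplied only a share of the ratio in tumors. The other 12 MMPs summed to 408, 535 and 614 TPM in SA tumors, each above the TIMP sum of the same tumor. In WT penis they summed to 254, 262 and 287 TPM, each below the TIMP sum of the same sample. The ratio of Mmp2 to Timp2 was 1.10, 1.43 and 1.44 in SA tumors and 0.469 to 0.476 in WT penis. Within the TIMPs, Timp1 made up 20.3, 22.1 and 26.1% of the summed TPM in SA tumors and 1.17 to 2.12% in WT penis. Timp2 remained the most abundant TIMP in all 6 libraries, with 53.4 to 61.5% in SA tumors and 68.2 to 74.2% in WT penis.

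**Figure D3:**
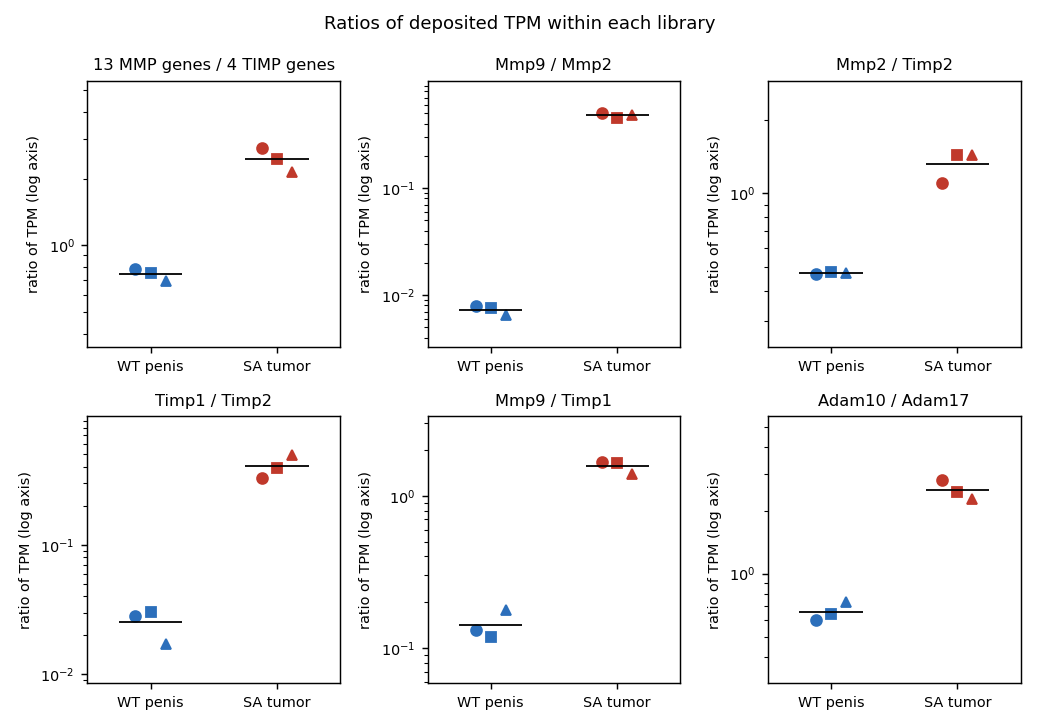
Ratios of deposited TPM values (log axis) in each library, 1 point per library, for the 13 summed MMP members over the 4 summed TIMPs and for pairs of members. The ratio of MMPs to TIMPs lies between 2.14 and 2.75 in SA tumors and between 0.693 and 0.786 in WT penis, and the ratio of Adam10 to Adam17 lies above 1 in every tumor and below 1 in every WT sample.

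Among the 8 ADAMs, 3 rose and 2 fell at the adjusted p, beside 20.1% and 17.5% of all genes. Only Adam12 passed both thresholds, upward, as did 9.41% of all genes. Adam12, a membrane-bound or secreted protease of developing muscle and of stroma, was at 11.8, 10.3 and 17.1 CPM in SA tumors and at 1.54, 1.57 and 1.37 CPM in WT penis. The tumors lay well above the closely grouped WT samples, at a log2 fold change of 3.13 ± 0.246 (SE), 8.78-fold, with adjusted p = 2.18e-05 (chr7:133883199-134225097). The main sheddases Adam10, which cuts Notch receptors and E-cadherin, and Adam17, which releases TNF and ligands of the EGF receptor, moved apart. Adam10 rose from 98.9 ± 7.99 to 170 ± 21.4 CPM (log2 fold change 0.78, adjusted p = 7.85e-04), and Adam17 fell from 147 ± 11.2 to 66.2 ± 9.03 CPM (log2 fold change -1.15, adjusted p = 1.07e-04). As a ratio of TPM values, Adam10 over Adam17 was 2.81, 2.46 and 2.27 in SA tumors and 0.603, 0.639 and 0.735 in WT penis.

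Adam15, an ADAM with an integrin-binding motif, fell from 262 ± 3.19 to 103 ± 11.3 CPM (log2 fold change -1.35, adjusted p = 2.14e-05). Adam8, a protease of leukocytes, rose from 28.7 ± 3.78 to 54.2 ± 16.3 CPM (log2 fold change 0.92, adjusted p = 0.00587), a call held in 3 of the 6 fits that left out 1 library. Adam9, a widely expressed sheddase, had a log2 fold change of -0.13 with adjusted p = 0.389. Adam19 and Adam33 did not pass, at log2 fold changes of 0.69 (adjusted p = 0.0400) and -1.26 (adjusted p = 0.0515).

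The 7 ADAMTS proteoglycanases, which cut versican and aggrecan, did not move as a block: 3 rose, 1 fell and their median log2 fold change was -0.07. These calls were at the adjusted p, where 20.1% of all genes were higher and 17.5% lower. Adamts4 was at 13.4, 10.7 and 18.2 CPM in SA tumors and at 1.76, 1.27 and 0.774 CPM in WT penis. The groups were separate at a log2 fold change of 3.48 ± 0.324 (SE), 11.1-fold, with adjusted p = 5.32e-05 (chr1:171250129-171262267). Adamts5, the other main aggrecanase, went the opposite way, from 33.2 ± 3.11 in WT penis to 9.99 ± 5.02 CPM in SA tumors (log2 fold change -1.71, adjusted p = 0.00424, held in 2 of the 6 fits).

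Adamts20, which cuts versican around developing hair and pigment cells, was at 4.61, 4.07 and 4.66 CPM in SA tumors and at 0.542, 0.767 and 1.18 CPM in WT penis. The groups did not overlap and the log2 fold change was 2.42 ± 0.307 (SE), with adjusted p = 2.81e-04. This increase depended on the transcript row: of 3 rows the one used (NM_001164785) had the highest mean count, but the next (NM_177431) held 149% of its counts in WT penis and 70.5% in SA tumors. That second row gave a log2 fold change of 1.3 (adjusted p = 0.00689) and the sum of the 3 rows 1.88 (adjusted p = 5.50e-04), so in each of these the fold threshold was missed. Adamts9, a proteoglycanase needed for ciliogenesis and development, rose from 7.10 ± 1.25 to 14.5 ± 0.346 CPM (log2 fold change 1.03, adjusted p = 9.53e-04). Adamts1, Adamts8 and Adamts15 did not pass, with log2 fold changes of -0.07, -1.42 and -0.83.

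The procollagen N-proteinases Adamts2, Adamts3 and Adamts14, which remove the amino-terminal propeptides of fibrillar procollagens, gave 0 of 3 calls in edgeR's test. At an unadjusted p under 0.05 in that test there was 1 of 3 (Adamts14), beside 9625 of all 16336 genes tested. Their log2 fold changes were 0.39 for Adamts2, -0.00 for Adamts3 and 1.03 for Adamts14 (adjusted p = 0.0113). Adamts2 was at 45.5 CPM in the first tumor and at 121 and 151 CPM in the others, on either side of the WT range of 68.1 to 89.8 CPM.

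Of the 8 remaining ADAMTS enzymes 4 rose and none fell at the adjusted p, with a median log2 fold change of 1.25. Over all genes 20.1% were higher and 17.5% lower at that threshold. Adamts17, an enzyme of fibrillin microfibrils, was at 91.5, 68.9 and 64.7 CPM in SA tumors and at 4.47, 6.07 and 5.24 CPM in WT penis. Every tumor lay far above every WT sample, with a log2 fold change of 3.83 ± 0.184 (SE), 14.2-fold, and adjusted p = 2.60e-06, the smallest among the members (chr7:66839699-67153171). Adamts18 was at 12.4, 7.71 and 7.64 CPM in SA tumors and at 0, 0.0334 and 0.0911 CPM in WT penis. The 3 WT libraries together held 3 counts and the SA libraries 1508, which after scaling to library size is a ratio of 206 with an exact 95% counting interval of 70.5 to 1000 (chr8:113697123-113849343). The fitted log2 fold change of 7.73 ± 0.520 (SE, adjusted p = 1.04e-05) depends on the prior count at so low a WT level.

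Adamts6, which acts on fibrillin microfibrils, rose from 1.46 ± 0.331 to 3.81 ± 0.614 CPM (log2 fold change 1.39, adjusted p = 0.00261), a call held in 4 of the 6 fits. Adamts7, which cuts cartilage oligomeric matrix protein (COMP), rose from 6.48 ± 0.769 to 16.0 ± 6.16 CPM (log2 fold change 1.31, adjusted p = 0.00482), held in 2 of the 6 fits and lost with limma-voom (adjusted p = 0.0135). Its relative Adamts12 did not pass (log2 fold change 1.18, adjusted p = 0.0182), nor did Adamts10 (-0.22), Adamts16 (0.61) or Adamts19 (1.02, adjusted p = 0.0653). With DESeq2, Adamts12 passed the adjusted p.

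The members varied most among the tumors, and the first SA tumor was the low one. It had the lowest level of the 3 tumors for 28 of the 43 members tested (65.1%), whereas over all genes tested it was lowest for 32.7%. Relative to the mean of the other tumors, 12 members were under 0.5, 23 were between 0.5 and 1, and 8 were at or above 1. The lowest ratios were those of Timp4 (0.197), Adam33 (0.291), Adamts2 (0.334) and Reck (0.377), and the highest those of Adamts18 (1.62), Adamts14 (1.38) and Adamts17 (1.37). The same ratio was 0.302 for the summed fibroblast markers, 0.319 for smooth muscle, 0.430 for macrophages, 0.877 for keratinocytes and 0.889 for neutrophils. The neutrophil sum came mostly from S100a8 (0.908) and S100a9 (0.899). The other tested neutrophil genes, Csf3r and Cxcr2, had ratios of 0.417 and 0.586. Of the 8 members upregulated past both thresholds the first tumor was lowest in 2, and of the 19 members that were not called it was lowest in 15. Leaving out the first tumor, no call at the adjusted p was lost and Mmp2, Adam19, Adam33, Adamts2 and Adamts12 were gained. The part of tissue composition in these tumor differences was not tested.

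**Figure D4:**
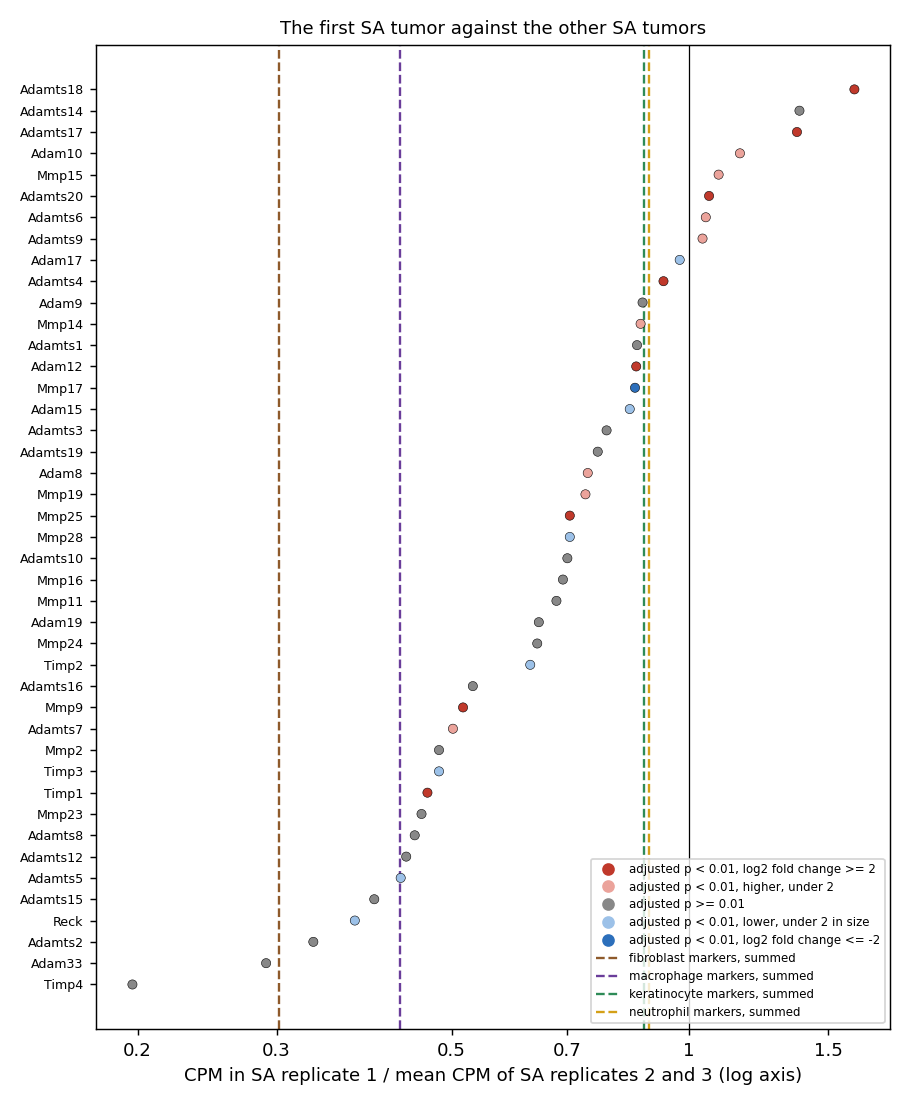
Level of each member in the first SA tumor over the mean of the other 2 SA tumors (ratio of CPM, log axis), with dashed lines for the same ratio of summed fibroblast (0.302), macrophage (0.430), keratinocyte (0.877) and neutrophil (0.889) markers. Ratios run from 0.197 for Timp4 to 1.62 for Adamts18, and 8 members lie at or above 1. The neutrophil line mostly reflects S100a8 and S100a9, whereas Csf3r and Cxcr2 had ratios of 0.417 and 0.586.

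Proteins that process, assist or serve as substrates of these enzymes were read from 5 lists, in which 7 of 31 genes tested rose and 2 fell past both thresholds, beside 9.41% and 3.59% of all genes. Of the ADAMTS-like proteins, which resemble ADAMTS enzymes but lack the protease domain and bind microfibrils, 2 of 7 rose past both thresholds, 1 fell past both and 3 more fell at the adjusted p (20.1% of all genes were higher and 17.5% lower at that threshold). Thsd4 rose from 8.27 ± 1.04 to 136 ± 24.8 CPM (log2 fold change 4.04, adjusted p = 1.96e-06), Adamtsl2 rose by 3.64 (adjusted p = 3.87e-05), and Adamtsl4 had a log2 fold change of -2.24 (adjusted p = 2.08e-04). Among 7 substrates tested, 2 rose and 1 fell past both thresholds, the last being Comp, the cartilage protein cut by Adamts7 and Adamts12 (log2 fold change -3.20, adjusted p = 2.00e-05), which thus went the opposite way to the cartilage markers Col2a1 and Col9a1. Of 6 genes in the list of other inhibitors and clearance proteins, 3 rose at the adjusted p and none fell. The largest called change there was that of the matrix proteoglycan Spock2 (log2 fold change 2.59, adjusted p = 9.92e-06), whose effect on these enzymes was not measured.

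The following partner genes were picked out after their values were seen. Of 4 proprotein convertases, which cut the propeptides of many of these enzymes, Furin rose (log2 fold change 1.14, adjusted p = 2.55e-05), Pcsk6 and Pcsk7 fell (-1.69 and -1.07) and Pcsk5 did not pass. Beside the fall of Adam17, its trafficking partners split, with Rhbdf1 at a log2 fold change of -1.13 (adjusted p = 1.08e-04) and Rhbdf2 at 1.27 (adjusted p = 5.23e-05). Beside the rise of Adam10, its tetraspanin partners Tspan15 (2.04, past both thresholds) and Tspan5 (1.26) rose, Tspan17 fell (-0.82) and Tspan14 stayed at -0.05. The substrates past both thresholds in the upward direction were the fibrillin Fbn2 (2.51) and the proteoglycan Bcan (2.29). In the list of other inhibitors and clearance proteins Tfpi2 (2.30) also rose past both. Versican (Vcan), which Adamts4, Adamts9 and Adamts20 can cut, rose from 88.8 ± 2.92 to 311 ± 101 CPM (log2 fold change 1.81, adjusted p = 2.12e-04).

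Exons of 14 members overlap exons of a gene on the opposite strand, and the sources do not say whether counting used the strand, so reads of such pairs may not be told apart. For Mmp28 the partner 1700020L24Rik fell with it (log2 fold change -1.88, adjusted p = 2.68e-04). For Timp3 the partner Syn3 rose (log2 fold change 1.31, adjusted p = 0.00145) from 2.49 CPM, far below the level of Timp3. The remaining 30 members, which include Mmp9, Mmp17, Timp1, Timp2, Adam12, Adamts17 and Adamts18, had no such overlap.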

How the data were processed

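Stranded RNA-seq libraries (76-nt paired-end reads, total RNA) of 3 SA tumors and 3 WT penis samples were compared. Reads were aligned by the authors with TopHat (mm10), checked with FastQC and counted per RefSeq transcript row with HTSeq; versions and the strand setting of the counting were not given in the sources used here. The deposited files held raw counts per row, which entered all tests. The deposited FPKM values were not used. The deposited TPM values, scaled by the authors by transcript length to a sum of 1e+06, were used to compare levels between genes, without a test. All columns belonged to a labelled sample.

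For each of 24063 symbols (33068 rows) the row with the highest mean count was kept, and 13 of the 44 members had more than 1 row. Counts were filtered with filterByExpr (at least 10 counts, about 0.38 CPM, in 3 libraries), scaled by TMM and tested with edgeR 4.0.16 (R 4.3.3; robust quasi-likelihood fit, group as the only term), with Benjamini-Hochberg correction over the 16336 genes that passed. The thresholds were those of the study, which used DESeq2: adjusted p below 0.01 and a log2 change of 2 or more in either direction. The fit was tested on simulated data first. CPM values are given as mean ± SD over 3 samples, and fold changes with their SE. The counting interval of Adamts18 and the 3-count floor cover counting error only.

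Members and gene lists were chosen with earlier results of these data known. All 44 members were named; values in every sample were given for those past both thresholds, for the 5 inhibitors and for Mmp2 and Mmp14; of the partner lists the counts and up to 3 genes in each direction were named, with further partners picked after seeing their values. The SA libraries were from 3 mice, whereas the labels do not say that each WT sample was a separate mouse, so p-values measure the spread between these samples. Replicate numbers do not mark shared animals or batches.

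Alternatives were DESeq2 1.42.0, limma-voom (limma 3.58.1), scaling by RLE, by the upper quartile or by library totals alone, no filter on low counts, a mean of at least 50 counts, a replicate block, the third SA library thinned to the depth of the others, the sum of transcript rows or the first listed row, a test against the fold threshold, and leaving out each library. Using the second row by count was added after seeing the data. Positions are those of mm10, exon overlaps were read from GENCODE M21, and promoters from RefSeq windows on GRCm38.p6. A planned motif search in proteins was not run.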

Additional observations from a re-analysis of the deposited data

How the results depend on the processing

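All 9 members past both thresholds kept that call with DESeq2, with limma-voom, under each scaling and filter, in the replicate block and in each of the 6 fits that left out 1 library. The exceptions were Adamts20, lost with the sum of transcript rows and with the second row (a setting chosen after seeing the data), and Mmp17, Mmp25, Timp1 and Adamts20, lost in edgeR's test against the fold threshold. That test called 5 members higher and 0 lower (8 and 1 at an unadjusted p under 0.05), 749 genes higher and 180 lower in all, and 2 partner genes higher and 1 lower. With library totals only, 1 partner gene was lower, and the median log2 fold change of all genes was 0.31, against 0.03. Members lower past both thresholds numbered 2 with DESeq2, RLE scaling, no filter, the replicate block and the thinning of SA tumor 3, where Reck joined Mmp17, and 1 to 3 when 1 library was left out (3 without SA tumor 3, where Adamts5 joined). Members lower at the adjusted p alone ranged from 5 to 9 when 1 library was left out: 5 without SA tumor 2 or any 1 of the WT samples, each time without Timp3, Reck and Adamts5. At the adjusted p alone, Timp3 was also lost with upper quartile scaling (0.0126), library totals only (0.0218) and no filter (0.0179), and Adamts7 with limma-voom (0.0135). Calls were gained there too: Adamts8, Adamts12 and Adamts14 with DESeq2, and Adamts12 and Adamts14 with library totals only. Upper quartile scaling and the thinned library gained Adamts14, and no filter gained Adamts8. Leaving out SA tumor 3 gained Adamts8 and Adamts14, and leaving out WT sample 3 gained Adamts14.

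The log2 fold changes that changed sign were all of members that were not called. With library totals only they were Mmp23 0.12, Adam9 0.16, Adamts1 0.21, Adamts3 0.29 and Adamts10 0.06. Adamts3, at -0.00, was also 0.10 with limma-voom, 0.07 with upper quartile scaling, 0.01 with a mean of at least 50 counts and 0.00 with the thinned library, and ranged from -0.45 to 0.23 when 1 library was left out, above 0 without SA tumor 1 (0.11), SA tumor 2 (0.23) or WT sample 2 (0.09). The same fits gave -0.35 to 0.11 for Mmp23 (0.11 without SA tumor 1), -0.32 to 0.19 for Adamts1 (0.19 without WT sample 3) and -0.00 to 1.10 for Adamts16 (-0.00 without SA tumor 3). The cause was not tested.

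The replicate block called 8 members higher and 2 lower past both thresholds. At the adjusted p alone it lost Adam8 and gained Adam19 and Adamts12. Same-numbered samples had correlations of deviations of -0.16, -0.17 and 0.05, so the numbers were not read as pairs. Depth limits Timp4, Mmp21, Mmp25 and Adamts18, whose levels in 1 or both groups lay near the 3-count floor, and 3 samples a group limit every call.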
